A study of Mus musculus with 42 samples.

Results

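Skin around wounds of diabetic mice that had been given vascular endothelial growth factor (VEGF) was set against untreated skin to find which genes came near to untreated skin by day 7 and which moved away from it. The members are 10 of the 42 Affymetrix mouse arrays in the study, chosen by their labels: 5 with treatment VEGF at 7 d and 5 labelled Untreated at baseline. Another 5 arrays of day 7 wounds given a control protein served as the measure of how far a wound without VEGF lay from untreated skin. Day 7 wounds given the fusion protein IL-22-Fc (5 arrays) or platelet-derived growth factor (PDGF, 3 arrays, 50 µg) were compared only in their distance from untreated skin. All these wounds were made on db/db mice, which lack a working leptin receptor and become obese and diabetic. By the methods these mice were female, 10 to 12 weeks old and of the BKS background. Their full-thickness wounds were dosed topically every other day up to day 6. The age and genotype of the untreated mice are not given. The labels give a VEGF dose of 20 µg where the methods give a higher one, name an anti-ragweed antibody as the control where the methods name control Fc, and give C57BL/6 as the strain of every array. What was sampled on day 7 was a 2-mm circle of skin around the wound, so each array holds epidermis, dermis, fat, muscle and invading cells together, and fewer cells of a type cannot be told apart from less RNA per cell.

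VEGF-A binds the receptors VEGFR2 (Kdr) and VEGFR1 (Flt1) on endothelial cells, with neuropilins as co-receptors, and makes them divide, loosen their junctions and sprout. Leading tip cells switch on genes such as Esm1, Angpt2 and Dll4, and Dll4 signals through Notch to the stalk cells behind. New tubes then lay down a basement membrane and are covered by pericytes. In a skin wound this runs beside inflammation, a burst of keratinocyte migration and division, and deposition of collagen by fibroblasts, and the wound edge normally drifts back toward resting skin as these programs are turned off.

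Values are the deposited intensities on the log2 scale, where a difference of 1 is a doubling. limma was fitted over all arrays, and genes with an adjusted p below 0.05 that also changed 1.5-fold or more were called. A gene was counted as nearer to untreated skin where control wounds differed from untreated skin, VEGF wounds differed from control wounds in the opposite direction, and the VEGF distance was the smaller of the 2. It was counted as farther where VEGF wounds differed from untreated skin, also differed from control wounds in that direction, and the VEGF distance was the larger. These classes share arrays between their comparisons and are descriptions without a test of their own. Nothing in the labels says that arrays of a group came from separate mice, so p-values measure the spread between arrays.

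Untreated array 5 stood apart. Its mean over 41 hair shaft and inner root sheath genes was 9.20, against 4.34 to 4.41 in the other untreated arrays and 4.32 to 4.38 in VEGF wounds, and 31 of these genes lay at least 2 log2 units above every other untreated array. Krt25, a keratin of the inner root sheath of growing hair, was 13.14 there and 2.30 to 2.51 in the other untreated arrays, and the pigment enzyme tyrosinase (Tyr) was 9.15 against at most 3.26. The 5′ Gapdh control probe set, a sign of RNA integrity, read 11.14 in that array, 12.5 to 12.92 in the other untreated arrays and 12.65 to 13.09 in VEGF wounds. When the 5′ Gapdh and Actb readings entered the fit as a covariate, 4801 genes differed between VEGF wounds and untreated skin, against 4484 without it. The overall counts below are given with and without untreated array 5, and so are the named genes whose call against untreated skin it changed. Female identity was shared by all arrays. The keratinocyte markers Krt5, Krt1 and Krt10 and the fibroblast markers Col1a1 and Col3a1 were among the brighter probe sets of both tissues. Krt14 had a dim probe set, and so did the fibroblast marker Dcn (means 6.71 in untreated skin and 6.03 in VEGF wounds). H2-Ea, a class II gene whose transcript C57BL/6 mice are known to lack, was 10.02 to 10.32 in untreated skin and 9.92 to 10.51 in VEGF wounds. The leptin receptor Lepr was 5.67 to 8.46 in untreated skin and 3.11 to 3.91 in VEGF wounds, the genotype of the untreated mice is not given, and their sample names come from a separate range of numbers. Wounding, genotype and handling therefore cannot be told apart in comparisons with untreated skin, which the comparison of VEGF with control wounds does not use.

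Promoter sequence is shown for genes of the sets that moved as groups, taken from RefSeq (GRCm38.p6) as the 120 bases before the annotated start, 5′ to 3′ on the gene's strand. The first set is 3 endothelial genes that were higher in VEGF wounds, Emcn at chr3:137340958-137341077 (plus strand), Adgrl4 at chr3:151437762-151437881 (plus strand) and Flt1 at chr5:147726012-147726131 (minus strand). Capitals mark AGGAAG, which holds the core letters known for binding of ETS-family factors, the class of transcription factor most used by endothelial cells. Genes of this set and of the second set below were eligible only if called higher and if their 120 bases held every marked motif. Those with the largest rises are shown, so the presence of the motifs in them is no result.

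Emcn: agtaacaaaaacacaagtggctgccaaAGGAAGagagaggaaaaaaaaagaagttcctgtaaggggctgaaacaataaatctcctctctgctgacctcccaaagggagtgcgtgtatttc

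Adgrl4: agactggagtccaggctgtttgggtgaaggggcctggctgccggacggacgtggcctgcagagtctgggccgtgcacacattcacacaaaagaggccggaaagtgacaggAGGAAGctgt

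Flt1: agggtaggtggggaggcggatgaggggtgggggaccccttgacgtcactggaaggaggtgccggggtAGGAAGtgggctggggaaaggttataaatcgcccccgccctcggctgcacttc

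On either strand of the 250 bases before the start, AGGAAG occurred in 9 of the 17 endothelial list genes with a promoter in the table (52.9%) and in 29.2% of all 27025 promoters. This motif was chosen after the values had been seen. The second set is 2 cell cycle genes, Cdk1 at chr10:69352913-69353032 (minus strand) and E2f8 at chr7:48881597-48881716 (minus strand), with capitals on CCAAT, the NF-Y site (here read as ATTGG from the other strand), and on TTTGAA, known from the cell cycle homology region (TTCAAA from the other strand).

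Cdk1: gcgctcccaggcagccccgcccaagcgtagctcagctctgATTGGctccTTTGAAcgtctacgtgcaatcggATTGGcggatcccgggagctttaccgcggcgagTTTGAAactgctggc

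E2f8: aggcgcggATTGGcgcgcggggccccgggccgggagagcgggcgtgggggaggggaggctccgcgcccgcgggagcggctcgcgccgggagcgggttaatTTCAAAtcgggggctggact

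CCAAT was found in 28 of 39 cell cycle promoters (71.8%) against 34.5% of all, TTTGAA in 11 (28.2%) against 16.3%, and both in 10 (25.6%) against 5.73%. Adgrl4, an adhesion receptor of endothelial cells, had a mean of 7.00 in untreated skin, 7.31 in control wounds and 8.84 in VEGF wounds. Cdk1, the kinase that drives mitosis, averaged 7.45, 8.28 and 8.64 in the same order, and E2f8, a repressor that limits S phase, averaged 6.99, 8.08 and 7.85. VEGF wounds stood above control wounds for the endothelial gene (difference 1.53, adjusted p = 3e-05), and for the cell cycle genes no difference between the wounds passed the test (adjusted p = 0.38 for Cdk1 and 0.62 for E2f8).

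Measured over all 20672 probe sets, VEGF wounds lay farther from untreated skin than control wounds did. The distance of an array is the root mean square log2 difference from the mean of the untreated arrays. It was 0.748, 0.684, 0.654, 0.713 and 0.67 in the VEGF arrays and 0.571, 0.569, 0.575, 0.564 and 0.598 in the control arrays. Every VEGF array lay above every control array. The means were 0.694 ± 0.037 (SD, n = 5) and 0.575 ± 0.013 (SD, n = 5), a difference of 0.12 (2-sided exact permutation p = 0.00794, the smallest that 5 against 5 arrays can give; 0.0238 adjusted over 3 comparisons). Without untreated array 5 the means were 0.721 and 0.601 and the p was the same. IL-22-Fc wounds, at 0.675 ± 0.026 (SD, n = 5), and PDGF wounds, at 0.730 ± 0.05 (SD, n = 3), were not told apart from VEGF wounds by exact permutation tests (p = 0.381 and 0.268). The first principal component (53.3% of the variance) held the same order, with untreated arrays at -71.6 to -45.1, control wounds at 14.2 to 23.6 and VEGF wounds at 32.9 to 45.1, while untreated array 5 alone took the far end of the second (19.2%).

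**Figure D1:**
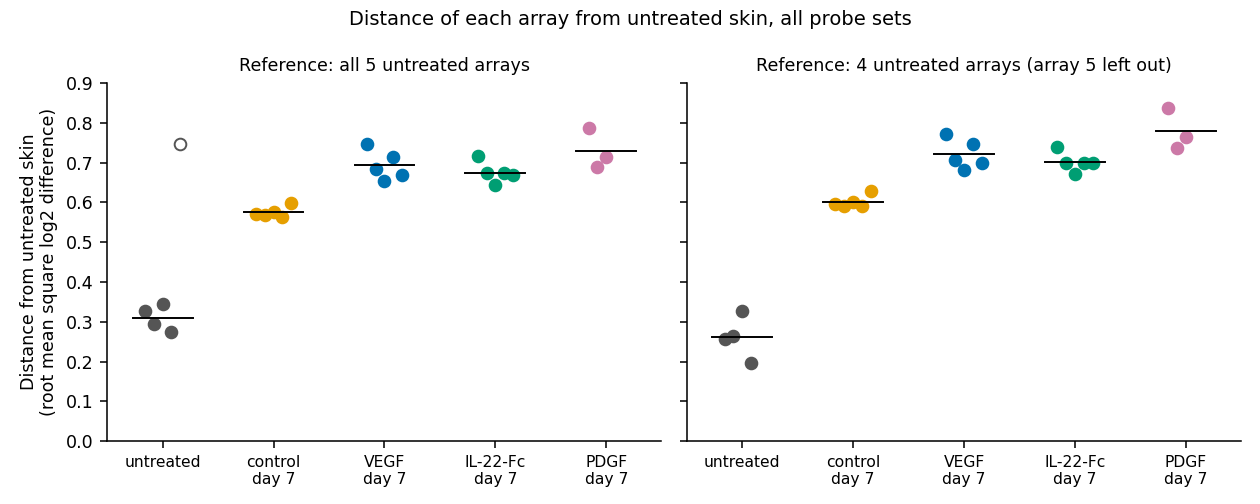
Each point is 1 array, and its height is the root mean square log2 difference from the mean of the untreated arrays over all probe sets; untreated arrays are measured from the other untreated arrays, black lines are group means (untreated array 5, the hollow point, is not in its group's line), and the right panel leaves out array 5. The VEGF arrays, at 0.654 to 0.748 in the left panel, all lie above the control arrays at 0.564 to 0.598.

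Of 20672 probe sets, 2031 were higher (9.82%) and 2453 lower (11.9%) in VEGF wounds than in untreated skin, against 1529 (7.4%) and 1716 (8.3%) in control wounds. Without untreated array 5 the VEGF counts were 2133 (10.3%) and 2623 (12.7%), those of control wounds 1622 (7.85%) and 1953 (9.45%), and 4147 of the 4484 genes called with it were called again. Directly between the wounds, 369 (1.79%) were higher and 675 (3.27%) lower with VEGF. Genes that had come nearer to untreated skin with VEGF numbered 121 (0.585% of all), 90 of them raised (0.435%) and 31 lowered (0.15%) in control wounds. Genes that had moved farther numbered 813 (3.93%), 298 above (1.44%) and 515 below (2.49%) untreated skin. Of the 298, control wounds were not called against untreated skin in 196, and of the 515 in 265. Some of these passed the adjusted p but not the fold threshold, as Col18a1 did (0.53, adjusted p = 0.00034 by limma). Leaving out untreated array 5 gave 153 nearer genes (0.74%), 109 of them shared, and 865 farther genes (4.18%), 788 of them shared.

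The largest rises over untreated skin in VEGF wounds were also seen in control wounds. Krt6b, a keratin that activated wound-edge keratinocytes switch on, was 6.67, 9.17, 3.31, 4.11 and 4.26 in untreated arrays 1 to 5 and 14.17, 14.05, 13.29, 14.06 and 13.41 in the VEGF arrays. The groups did not overlap, the difference was 8.29 (314-fold, adjusted p = 5e-16), and control wounds stood 8.70 above untreated skin. Mmp13, a collagenase of wound fibroblasts and keratinocytes, was 2.76 to 4.48 in untreated skin and 10.15 to 11.47 in VEGF wounds (149-fold, adjusted p = 1.1e-19). Cxcl5, a neutrophil attractant, lay in every untreated array at or under the level of Y-linked genes, which these female mice do not have (3.47), and was at least 75.2-fold higher in VEGF wounds, or at least 42.9-fold without VEGF array 1, which read 12.94 where the others read 8.33 to 9.75. The other large rises were 2610528A11Rik (5.56), Saa3, an acute-phase protein (6.53), the cornified-envelope precursor Sprr1b (6.28), the antimicrobial subunit S100a9 (5.96), the Wnt modulator Sfrp2 (5.40), the matrix protein Cthrc1 (5.39) and the embryonic myosin Myh3 (5.28). Of the 10 largest rises, 2 also differed between the wounds: 2610528A11Rik, which was 1.41 below control wounds (adjusted p = 0.0021) and counted as nearer, and Myh3 (1.10 above control wounds, adjusted p = 0.02), a call lost without control array 2 (1.04).

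The lists of inflammatory cells differed from each other. All 25 monocyte and macrophage genes rose (median 1.84), where 9.82% of all probe sets rose with a median over all of 0.04. The 25 also rose in control wounds (median 1.61), and none was called between the wounds. C1qa, a complement subunit made by macrophages, was 8.98 to 10.58 in untreated skin and 12.03 to 12.16 in VEGF wounds, a rise of 2.34 (adjusted p = 2.6e-13). The macrophage marker Cd68 rose by 1.93, but untreated array 3 (9.61) lay within the VEGF arrays (9.29 to 9.97). The list mean of that array was 9.89, against 8 to 9.15 in the other untreated arrays and 10.41 to 10.61 in VEGF wounds. Neutrophil genes rose in 15 of 22 (median 1.94, 1.56 without untreated array 5), with the receptors Csf3r and Cxcr2 up by 1.93 and 1.17. Mast cell genes rose in 2 of 12, B cell and plasma cell genes in 1 of 9, dendritic and Langerhans cell genes in 2 of 18 with 2 lower, and eosinophil genes in 0 of 8 with 1 lower, against 9.82% and 11.9% of all probe sets. Of 36 cytokine and chemokine genes 23 rose and 1 fell. VEGF array 1 was high in several of them. Il6, the fever cytokine, was 11.91 in that array and 4.94 to 5.83 in the other VEGF arrays, and the neutrophil attractant Cxcl3 was 12.51 there and 5.16 to 8.31 in the others. Both lay under the level of Y-linked genes in every untreated array. Against that level Il6 was at least 9.22-fold higher, or 3.72-fold without VEGF array 1, and Cxcl3 at least 18.1-fold higher, with a range of 7.81-fold (without VEGF array 1) to 27.9-fold (without VEGF array 5). T cell genes moved in both directions, with 3 of 17 up and 4 down; Cd3g fell by 1.63 and Cd3e had a difference of -0.26 that did not pass the fold threshold. Langerin (Cd207), which marks Langerhans cells, fell by 0.83 with VEGF and by 0.84 in control wounds.

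Matrix genes of the repairing dermis were higher too. All 22 fibrillar collagens and collagen-processing enzymes rose (median 2.22, and 1.84 in control wounds), and 1 of the 22 was called between the wounds. Col1a1, the main chain of type I collagen, was 9.98, 9.52, 11.15, 10.40 and 12.24 in untreated arrays and 13.45 to 13.81 in VEGF wounds, a rise of 2.97 (adjusted p = 1.6e-10) and of 3.37 without untreated array 5. Among 17 wound matrix and myofibroblast genes 14 rose, including the myofibroblast protein Lrrc15 (4.65) and tenascin-C (Tnc, 3.33). Lrrc15 was 10.25 in untreated array 5 and 4.21 to 5.76 in the other untreated arrays, and its difference without array 5 was 5.73. Among 14 metalloproteinases and inhibitors 12 rose and 1 fell. Resting dermal fibroblast genes were mixed, with 7 of 20 higher and 4 lower (8 and 2 in control wounds). Dcn fell by 0.68, and by 0.86 in control wounds.

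Cell cycle genes rose in 27 of 47 (median 0.63) and in 34 (median 0.92) without untreated array 5. Plk1, a mitotic kinase, was 5.91, 6.49, 7.05, 6.29 and 8.37 in untreated arrays and 7.82 to 8.33 in VEGF wounds. Array 5 alone overlapped the VEGF arrays, and the difference was 1.22 with it and 1.60 without it. No cell cycle gene passed the test between VEGF and control wounds. In the other lists, leaving out array 5 changed the number of higher or lower genes by at most 3.

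**Figure D2:**
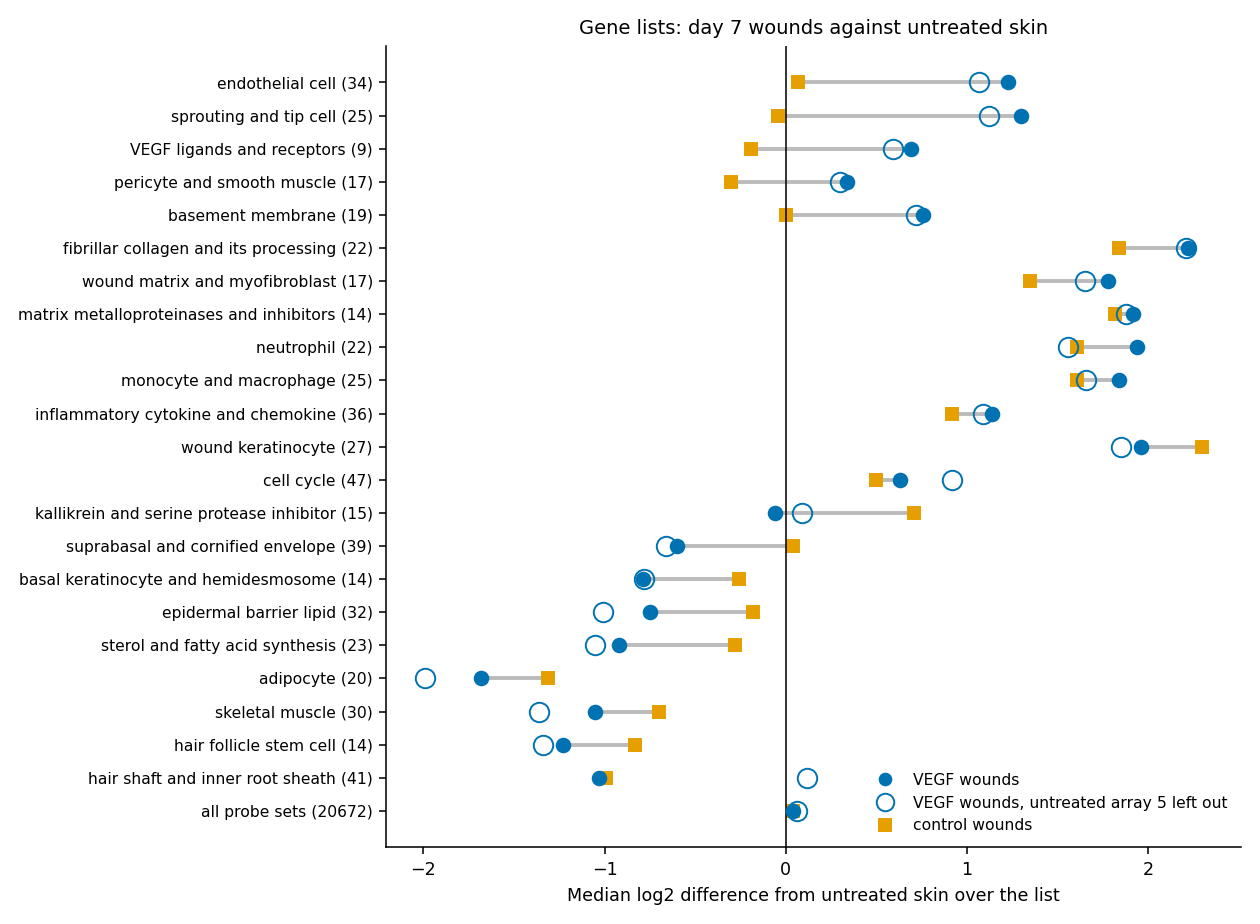
Each row is a gene list with its number of measured genes; the horizontal axis is the median log2 difference from untreated skin in VEGF wounds (filled circles), in VEGF wounds with untreated array 5 left out (open circles) and in control wounds (squares). The vessel lists separate the wounds to the right, with endothelial medians of 1.23 and 0.07, and the epidermal and lipid lists separate them to the left, whereas the collagen and macrophage lists lie far from 0 in both; the hair shaft median turns from -1.03 to 0.12 without array 5.

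Of the 298 genes that had moved farther above untreated skin with VEGF, 53 (17.8%) were in one of 7 vessel lists, and 234 were in none of the 45 lists. Of the 515 genes farther below, 2 (0.388%) were in the vessel lists. The share of all probe sets in these lists was not counted, and the lists were chosen with earlier results known. Of 34 endothelial genes 28 were higher and 1 lower than in untreated skin (median 1.23), 28 were higher than in control wounds (1.79% of all probe sets were), and 25 counted as farther above untreated skin. In control wounds 7 were higher than in untreated skin and 4 lower, with a median of 0.07. Emcn, the sialomucin endomucin of capillaries and veins, was 6.65, 6.28, 6.64, 6.66 and 5.86 in untreated arrays, 7.16, 7.18, 7.18, 7.26 and 7.16 in control wounds and 9.74, 9.70, 9.32, 9.31 and 9.13 in VEGF wounds. The groups were fully separate, with VEGF 8.11-fold over untreated skin (adjusted p = 1.6e-20) and 4.77-fold over control wounds (adjusted p = 2e-16). Pecam1, the junction protein CD31, was 6.55 to 7.81 in untreated skin, 7.35 to 7.77 in control wounds and 8.69 to 9.13 with VEGF, so control wounds overlapped untreated skin and VEGF wounds did not. The orphan receptor Tie1 rose by 1.89, the sprouting regulator Clec14a by 2.04, the lectin Cd93 by 2.28 and VE-cadherin (Cdh5) by 0.88.

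**Figure D3:**
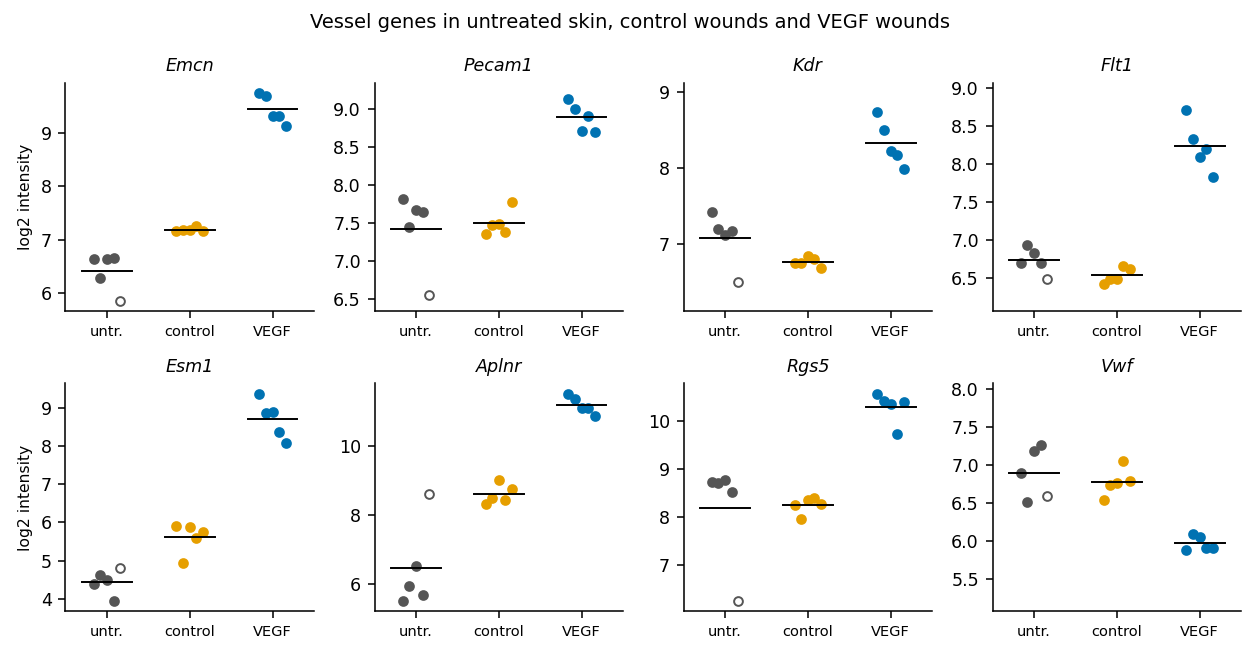
Each panel is a gene and each point an array, with log2 intensity on the vertical axis, untreated skin, control wounds and VEGF wounds from left to right, a black line at each mean and untreated array 5 as a hollow point. The VEGF arrays lie above both other groups for the first 7 genes, as with Esm1 at 8.06 to 9.36, and below both for Vwf.

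Von Willebrand factor went the other way. Vwf, the clotting protein stored in endothelial cells, was 6.52 to 7.27 in untreated skin, 6.54 to 7.05 in control wounds and 5.88 to 6.10 in VEGF wounds. All VEGF arrays lay below all others, by 0.92 against untreated skin (adjusted p = 2e-06) and 0.80 against control wounds (adjusted p = 0.00012). It was the 1 endothelial gene of the list that was lower.

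Sprouting and tip cell genes were higher in 20 of 25 and lower in none, and 18 counted as farther above untreated skin (median 1.3; -0.04 in control wounds). Without untreated array 5, 19 were higher and Igfbp3, which binds insulin-like growth factors, was lower (-0.65, against -0.10 with that array). Esm1, a proteoglycan secreted by tip cells, was 4.38, 4.61, 4.48, 3.94 and 4.80 in untreated arrays, 4.94 to 5.90 in control wounds and 9.36, 8.85, 8.87, 8.35 and 8.06 in VEGF wounds. It stood 19.1-fold over untreated skin (adjusted p = 2.8e-18) and 8.51-fold over control wounds. The apelin receptor Aplnr was 5.51, 5.94, 6.52, 5.69 and 8.63 in untreated skin and 10.89 to 11.53 with VEGF, 27.1-fold higher (a difference of 4.76, and of 5.30 without untreated array 5); untreated array 5 lay within the control wounds' 8.34 to 9.02. Kcne3, a potassium channel subunit, and Pcdh17, a protocadherin, were at 3.88 to 4.30 and 4.09 to 4.83 in untreated skin and rose by 3.57 and 2.94, with control wounds at -0.07 and -0.04. These are the genes with the largest gap between the wounds, and among the others so named were the transmembrane collagen Col13a1 (2.97 above untreated skin, -0.03 in control wounds) and Cemip, which breaks down hyaluronan (5.17, and 2.71 in control wounds).

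Among the 9 VEGF ligands and receptors measured, 6 were higher and 2 lower than in untreated skin. Kdr was 7.43, 7.20, 7.12, 7.17 and 6.50 in untreated arrays, 6.69 to 6.84 in control wounds and 7.99 to 8.74 with VEGF. Flt1 was 6.49 to 6.94, 6.43 to 6.67 and 7.84 to 8.71. For both receptors VEGF wounds were separate from the other groups, by 1.24 and 1.5 against untreated skin and by 1.56 and 1.70 against control wounds, and control wounds did not pass the test against untreated skin. The lymphatic receptor Flt4 rose by 0.69, the co-receptor Nrp1 by 1.2 and the ligand placental growth factor (Pgf) by 0.80. Lymphatic endothelial genes as a list were mixed. Of the 8 measured, 2 were higher and 2 lower than in untreated skin, against 9.82% and 11.9% of all probe sets. Of these 8, 1 counted as farther above and 1 as farther below. Vegfc rose by 0.69 and Nrp2 fell by 0.65, but neither passed without untreated array 5 (0.46 and -0.36), which was the lowest for Vegfc (6.22) and the highest for Nrp2 (7.27). Vegfb fell by 0.66 with VEGF, a call lost without untreated array 3, and by 0.63 in control wounds. Vegfa mRNA itself did not pass (-0.24, adjusted p = 0.45): it was 7.06 to 7.40 in untreated skin and 8.68, 5.95, 6.49, 7.00 and 6.98 in the VEGF arrays, and without VEGF array 1 the difference was -0.66 (adjusted p = 0.0017).

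Partner pathways moved in part. Of the angiopoietin and Tie genes 4 of 7 rose, with Angpt2, which destabilises vessels, up by 1.84 and its receptor Tek by 1.17, while the stabilising ligand Angpt1 had a difference of -0.06 (adjusted p = 0.84). Of 12 Notch genes 4 rose and 3 fell, with the tip cell ligand Dll4 up by 0.84, the endothelial receptor Notch4 by 1.77 and the target Hey1 by 0.92; each was also higher than in control wounds. Mural cell genes, of pericytes and smooth muscle, rose in 7 of 17 and fell in 5. The pericyte marker Rgs5 was 8.72, 8.71, 8.77, 8.51 and 6.24 in untreated arrays, 7.96 to 8.4 in control wounds and 10.57, 10.41, 10.36, 9.73 and 10.40 with VEGF, a rise of 2.11 (1.62 without untreated array 5). The pericyte genes Higd1b, Abcc9 and Pdgfrb rose by 1.88, 1.25 and 1.68, and the smooth muscle genes Myh11 and Mylk fell by 1.05 and 0.78, as they had in control wounds (1.40 and 1.24 lower). The pericyte genes that rose were separate from control wounds as well, and the contractile genes that fell were not called between the wounds.

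Basement membrane genes were higher in 11 of 19, lower in 1, and 9 counted as farther above untreated skin (median 0.76; 0 in control wounds). The nidogens, which link laminin to type IV collagen, rose by 1.5 (Nid1) and 1.93 (Nid2), and the laminin chain Lamb1 by 1.45. Col18a1, whose fragment is endostatin, was 8.56 in untreated skin, 9.09 in control wounds and 10.14 in VEGF wounds on average. With Esm1, the calcification inhibitor Mgp (up by 2.21) and the vasoconstrictor Edn1 it makes up the set of genes that the study displayed for VEGF, which is therefore no independent evidence. Edn1 had a difference of 0.50 from untreated skin, under the fold threshold, and of 0.69 from control wounds (adjusted p = 0.0013). The vasodilator peptide adrenomedullin (Adm) rose by 1.84, against 0.09 in control wounds.

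Of the 515 genes that had moved farther below untreated skin with VEGF, 59 (11.5%) were in the lists of epidermis, lipid synthesis and fat, and 441 were in none of the 45 lists. Of the 298 genes farther above, 1 (0.336%) was in those lists of epidermis, lipid synthesis and fat. The share of all probe sets in them was not counted either. Among 14 basal keratinocyte and hemidesmosome genes 9 fell and 1 rose (median -0.79; -0.26 in control wounds; 11.9% of all probe sets fell), and 8 counted as farther. Krt5, the basal keratin, was 13.26, 13.42, 12.98, 13.25 and 13.14 in untreated arrays, 12.90 to 13.22 in control wounds and 12.19, 12.30, 12.02, 12.68 and 12.05 in VEGF wounds. Control wounds overlapped untreated skin, with 2 arrays a little below its range, and all VEGF arrays were lower than both, by 0.96 against untreated skin (adjusted p = 6.2e-11). Col17a1, a collagen of the hemidesmosome, was 10.20 to 11.83, 10.21 to 10.87 and 9.42 to 10.03 in untreated skin, control and VEGF wounds, and the hemidesmosome linker Dst fell by 2.04 and the follicle keratin Krt15 fell by 2.23. The laminin receptor subunit Itga6 had a difference of -0.25 that did not pass.

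Cornified envelope genes split in 2 directions. Of 39, 20 fell and 7 rose against untreated skin (median -0.60; 0.04 in control wounds), 24 were lower than in control wounds (3.27% of all probe sets were), 16 counted as farther below, 7 as nearer from above and 1 as farther above. That one was Krt2, a keratin of the upper epidermis, which was 4.05 to 4.74 in untreated skin, 4.59 to 8.71 in control wounds and 7.63 to 9.41 with VEGF (21.1-fold over untreated skin, and 3-fold over control wounds with an adjusted p of 0.043). The difference of Krt2 between the wounds was not called without control array 1 (0.96), 3 or 4 or VEGF array 1, 3, 4 or 5. Krt77, a keratin of the sweat duct and interfollicular epidermis, was 13.48 to 13.78 in untreated skin, 12.22 to 12.51 in control wounds and 11.06, 11.64, 11.68, 11.02 and 11.88 in the VEGF arrays, with no overlap between any of the 3 groups. Sbsn, the envelope protein suprabasin, was 11.07 to 12.06, 10.96 to 11.17 and 10.02 to 10.34, and Lce1m, a late envelope protein, fell by 3.30 against 2.28 in control wounds. Filaggrin (Flg) and repetin (Rptn) rose by 1.89 and 3.85, with control wounds at 2.35 and 4.39. The abundant keratins Krt1 and Krt10 moved by 0.27 and -0.34, under the fold threshold.

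**Figure D4:**
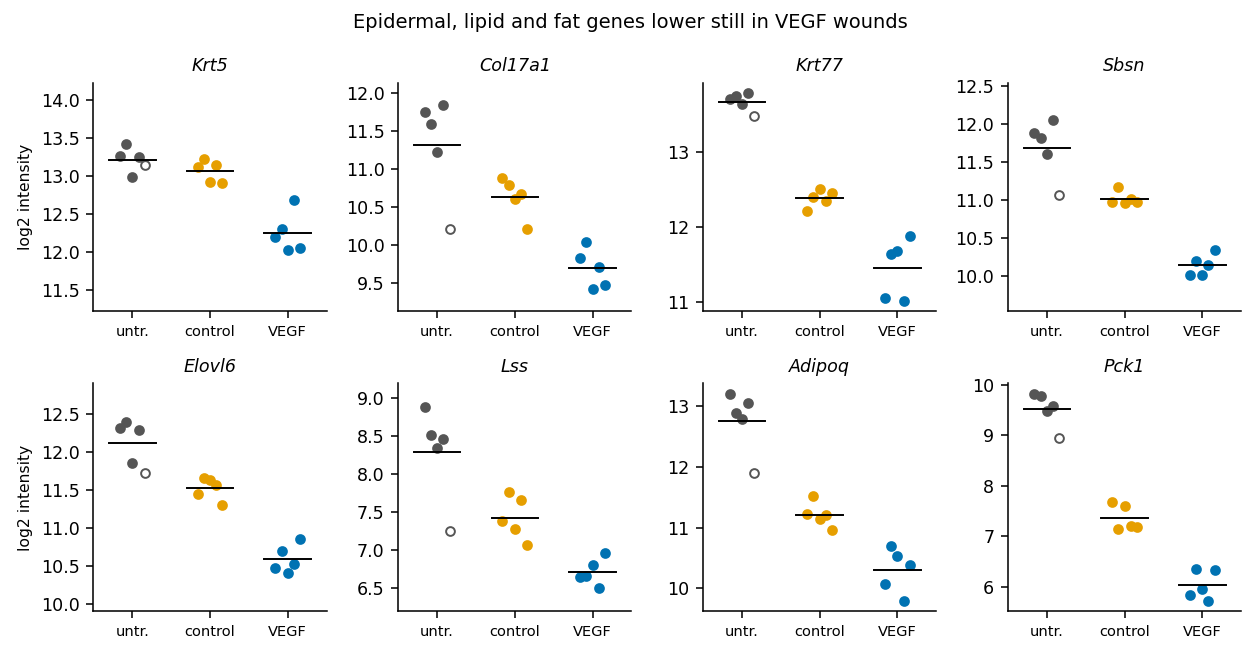
Each panel is a gene and each point an array, with log2 intensity on the vertical axis, untreated skin, control wounds and VEGF wounds from left to right, a black line at each mean and untreated array 5 as a hollow point. The VEGF arrays are the lowest in every panel, as with Elovl6 at 10.41 to 10.85 against 11.30 to 11.66 in control wounds and 11.72 to 12.39 in untreated skin.

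Lipid genes were lower across several lists. Of 32 epidermal barrier lipid genes 18 fell and 2 rose (median -0.75, and -1.01 without untreated array 5), of 23 sterol and fatty acid synthesis genes 18 fell and none rose (median -0.92; -0.28 in control wounds, where 5 fell), and 11 of the latter counted as farther. Elovl6, which lengthens palmitate, was 12.31, 12.39, 11.85, 12.29 and 11.72 in untreated arrays, 11.30 to 11.66 in control wounds and 10.47, 10.69, 10.41, 10.53 and 10.85 with VEGF, 2.86-fold below untreated skin (adjusted p = 9.1e-09). Lanosterol synthase (Lss), of the cholesterol pathway, was 7.26 to 8.88, 7.07 to 7.76 and 6.51 to 6.97. Squalene synthase (Fdft1) fell by 1.34, fatty acid synthase (Fasn) by 1.5 and the barrier gene Nipal4 by 1.48; Fasn did not differ between the wounds at the fold used.

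The 10 largest falls were Nnat, Pck1, Lce1m, Hamp2, Retn, Sfrp5, Amy1, Scd3, Ckmt2 and Cldn8, from -3.81 to -2.88.

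Adipocyte genes fell in 17 of 20 (median -1.68; -1.99 without untreated array 5) and none rose, as in control wounds (17, median -1.31), and 11 counted as farther. Adiponectin (Adipoq), a hormone of fat cells, was 13.21, 12.89, 12.79, 13.05 and 11.90 in untreated arrays, 10.97 to 11.53 in control wounds and 10.08, 10.70, 10.53, 9.79 and 10.39 with VEGF, 5.55-fold below untreated skin. Pck1, the enzyme of glyceroneogenesis in fat, was 8.95 to 9.82, 7.15 to 7.67 and 5.72 to 6.36, 11.2-fold below. The fat hormones leptin (Lep) and resistin (Retn) fell by 2.61 and 3.09. Lep was 7.59 in untreated array 5 and 11.89 to 12.71 in the other 4, so its groups overlapped through that array alone and the difference without it was -3.56. The same array was low for Nnat (5.97 against 9.29 to 10.29), Sfrp5 (5.46 against 9.48 to 9.98) and Npr3 (7.39 against 11.52 to 12.21), 3 more genes of the farther set below untreated skin, which fell by 3.81, 3.03 and 2.48 with it and by 4.57, 3.89 and 3.37 without it. The difference of Sfrp5 and Npr3 from control wounds, 1.36 and 1.34 lower with VEGF, was no longer called when VEGF array 3, 4 or 5, or one of several control arrays, was left out.

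Genes of other resident tissues moved in part, where 9.82% of all probe sets rose and 11.9% fell. Skeletal muscle genes fell in 19 of 30 and rose in 4 (median -1.05), against 17 and 4 in control wounds. The fast-fibre myosin Myh4 and creatine kinase Ckm fell by 2.24 and 1.82. The slow or embryonic genes Tnnc1, Tnni1 and myogenin (Myog), which regenerating fibres express, rose by 3.53, 2.97 and 2.26. Hair follicle stem cell genes fell in 10 of 14 (9 without untreated array 5, and 11 in control wounds), with Lhx2 and Lgr6 down by 2.69 and 2.24. Untreated array 5 was the highest untreated array for both, at 9.54 and 8.46 where the next read 7.75 and 7.8. Of 41 hair shaft genes 5 fell, near the 11.9% of all probe sets that did. Without array 5, 4 fell and 1 rose, where 12.7% of all probe sets fell and 10.3% rose. Gata3, a regulator of the inner root sheath that other epidermal cells also express, was 10.41 to 10.90 in untreated skin and 8.19 to 8.65 in VEGF wounds. Nerve and Schwann cell genes fell in 5 of 9 and rose in 1 (2 and 1 in control wounds), with the myelin gene Mbp down by 2.49 and the myelin enzyme Cnp at 0.07, which did not pass. Respiratory chain genes fell in 12 of 36 (4 in control wounds), with Cox8b, of muscle and brown fat, down by 2.43. Of 17 circadian clock genes 8 fell and 2 rose (median -0.53; -0.79 without untreated array 5), with the output factor Dbp down by 1.96 and Per3 by 1.52 and the repressor Bhlhe40 up by 0.76 (1.30 in control wounds); the hour of sampling is not given and its part was not tested.

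Genes that had come nearer to untreated skin with VEGF were fewer. Tslp, an alarm cytokine of keratinocytes, was 5.09, 6.23, 5.62, 4.90 and 4.66 in untreated arrays, 6.72, 6.64, 7.24, 6.85 and 7.20 in control wounds and 6.08, 5.83, 5.12, 5.13 and 5.22 in VEGF wounds. VEGF arrays overlapped untreated skin and were all below the control wounds, with a difference of 0.18 from the former (adjusted p = 0.64) and 2.75-fold less than the latter (adjusted p = 0.00026). Aqp3, the glycerol channel of the epidermis, was 7.48 to 8.88, 9.49 to 10.27 and 7.99 to 9.43 in untreated skin, control and VEGF wounds. Sln, the muscle calcium-pump inhibitor sarcolipin, showed the largest gap of these genes: it was 5.07 to 8.18, 8.27 to 9.43 and 6.31 to 7.28. Il1f6, the epidermal cytokine IL-36 alpha, stood 2.30 above untreated skin in control wounds and 0.95 with VEGF, called with all arrays but not without VEGF array 1 (0.79). The inhibitor Serpinb12 and the phosphatase Acpp stood 1.78 and 1.10 above untreated skin in control wounds and did not pass with VEGF (0.66 and -0.08).

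Of the 90 genes raised in control wounds that were nearer with VEGF, 57 were no longer called against untreated skin and 33 were still called higher. Kallikreins and serine protease inhibitors, which time the shedding of the horny layer, held 5 of them among 15 genes (0.435% of all probe sets), with Wfdc12 at 4.78 to 5.96 in untreated skin, 8.59 to 9.19 in control wounds and 7.32 to 8.45 with VEGF; its difference between the wounds (adjusted p = 0.038) was not called when VEGF array 3 or 5 or any one of control arrays 1 to 4 was left out. The list median was 0.71 in control wounds and -0.06 with VEGF, or 0.09 without untreated array 5. Other members went past untreated skin, as Klk5 did, which was 0.13 above it in control wounds and 0.81 below it with VEGF. Wound keratinocyte genes stayed high, with 22 of 27 called (median 1.96; 2.30 in control wounds) and 3 nearer.

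Of the 31 genes lowered in control wounds and nearer with VEGF, 5 (16.1%) were in one of the 7 vessel lists, whose sizes are given above. Of the 90 genes raised in control wounds and nearer with VEGF, 0 were in them. The share of all probe sets in these lists was not counted. Cldn5, the endothelial tight junction claudin, was 9.04, 8.82, 8.62, 8.51 and 6.85 in untreated arrays, 7.44, 7.96, 7.73, 7.73 and 7.43 in control wounds and 8.93, 8.95, 8.41, 8.68 and 8.50 with VEGF. The VEGF arrays overlapped the untreated arrays and lay above all control wounds, and the difference from untreated skin was 0.33 with that array and -0.05 without it. Tmem204, an endothelial membrane protein, was 7.56 to 8.17, 6.95 to 7.15 and 7.86 to 8.62 in untreated skin, control and VEGF wounds. Btnl9 stood at 6.96 to 8.09, 6.58 to 7.07 and 7.74 to 8.19, and the arterial semaphorin Sema3g at 6.37 to 6.58, 5.45 to 5.94 and 6.40 to 6.89. For these 4 genes VEGF wounds did not pass the test against untreated skin and were 1.96-fold to 2.28-fold above control wounds.

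Of the 31, 25 were no longer called against untreated skin, 2 were still lower and 4 had passed to the other side of it. Among the last were Mcam, the adhesion protein CD146 of endothelium and pericytes (0.75 lower in control wounds, 0.70 higher with VEGF), the receptor-signalling inhibitor Spry4 (0.63 lower, 0.61 higher) and the ubiquitin ligase Hecw2 (0.77 lower, 0.68 higher). Mcam was not called against untreated skin without untreated array 5 (0.48). Spry4 and Hecw2 were not called without VEGF array 1 (0.40 and 0.51), and Spry4 was also lost without VEGF array 2 (0.58) or untreated array 4 (0.56).

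**Figure D5:**
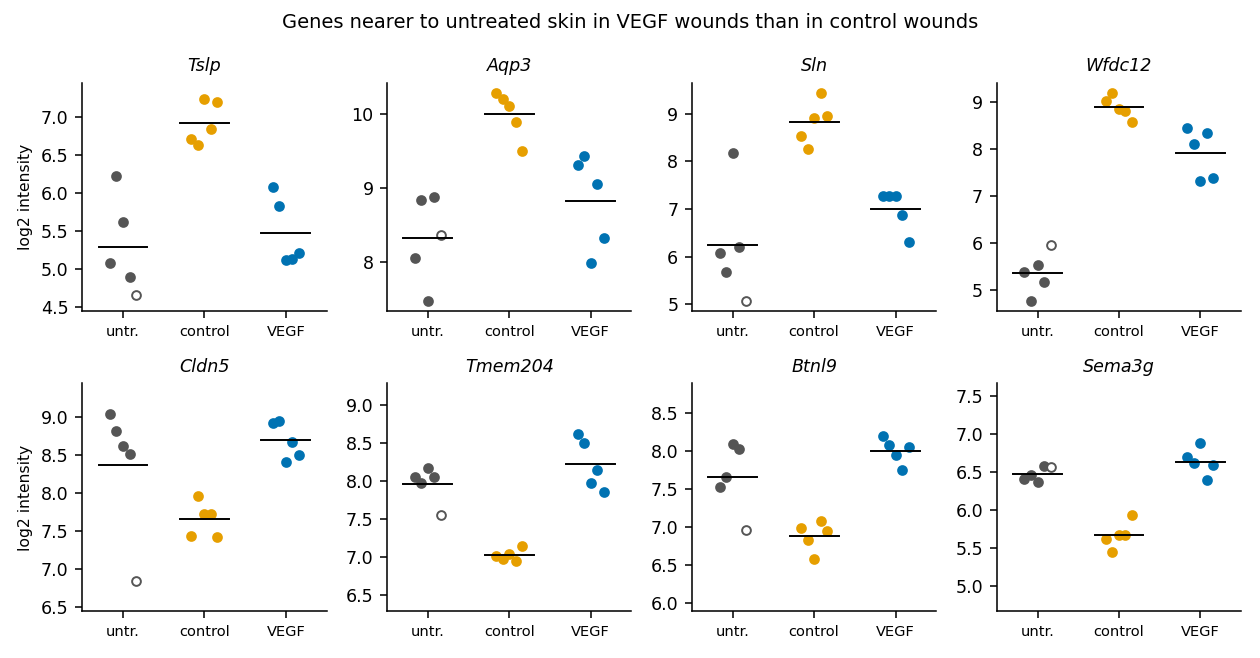
Each panel is a gene and each point an array, with log2 intensity on the vertical axis, untreated skin, control wounds and VEGF wounds from left to right, a black line at each mean and untreated array 5 as a hollow point. In the top row control wounds lie above untreated skin and VEGF wounds between or level with it, as with Tslp at 5.12 to 6.08 in VEGF wounds; in the bottom row control wounds lie below, as with Cldn5 at 7.43 to 7.96, and VEGF wounds level with untreated skin.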

How the data were processed

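Affymetrix Mouse430V2 arrays of 9 groups (42 arrays) were used as deposited. Per the labels and methods the authors summarised them by RMA; the deposited intensity values are on a linear scale (lowest 3.85, median 50.8), with 1 probe set per gene, the one of highest variance. They were used on the log2 scale, computed here from the deposited values. Of 20672 probe sets, 17928 had 1 gene symbol, 79 several and 2665 none. limma 3.58.1 in R 4.3.3 was fitted over all arrays with 1 coefficient per group, with Benjamini-Hochberg adjustment over all probe sets; single values such as the distance were compared by exact permutation tests. The distance measure was added after the design had been written. An unpaired t-test was an alternative. The methods name it for measurements other than the arrays, while the figure legends name a t-test for the single array genes displayed. Intensity rather than read depth, and the number of arrays, limit precision.

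The members and the 45 gene lists were chosen with earlier results of these data known. Named genes were the 10 that rose most and the 10 that fell most, the 8 in each direction with the largest difference between the wounds among nearer and farther genes, up to 4 called members of a list in each direction and 2 not called, all VEGF ligands and receptors, and the genes the study displayed; of these the text gives a selection, to which Adgrl4, Cdk1, E2f8 and other members of the lists were added after their values were seen. Where every array of a group lay at or under 3.47, the highest value of Y-linked genes, a fold is given as a lower bound from that level. Scripts were tested on simulated data.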

Additional observations from a re-analysis of the deposited data

Results flagged for a closer look

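In 127 named genes and 3 groups of 5 arrays each, 381 groups were examined for a highest or lowest array far from the others, and 34 held one; chance marks about 1 in 20 groups. Of these, 23 were untreated array 5. It was high for the hair and pigment genes Krt25 (13.14) and Tyr (9.15), the follicle genes Lhx2 (9.54) and Lgr6 (8.46), Lepr (8.46), Lrrc15 (10.25), Flg (10.38), Col18a1 (9.24), Cemip (4.93), 2610528A11Rik (5.38), Bhlhe40 (9.41) and Nrp2 (7.27). It was low for the fat-associated genes Lep (7.59), Nnat (5.97), Sfrp5 (5.46) and Npr3 (7.39) and for the vessel genes Rgs5 (6.24), Myh11 (8.11), Cldn5 (6.85), Vegfc (6.22), Clec14a (4.97), Dll4 (4.88) and Notch4 (6.08).

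VEGF array 1 was high for Il6 (11.91) and Tnc (8.65) and low for Hamp2 (5.30), and VEGF array 4 was low for Rgs5 (9.73) and Nrp1 (10.84). Among control wounds, array 4 was high for Emcn (7.26) and low for Cd93 (4.83), and array 5 was high for Dll4 (5.61) and low for S100a9 (12.29). Untreated array 4 was high for Myh3 (6.59), and untreated array 3 was low for Gata3 (10.41).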

How the results depend on the processing

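The counts moved mainly with the threshold. In the order VEGF against untreated skin, control wounds against untreated skin, VEGF against control wounds, nearer and farther, they were 9359, 7597, 2360, 319 and 1905 with no fold threshold and 2145, 1252, 226, 15 and 164 at 2-fold. At 2-fold the share of higher genes went to 61.9% between the wounds and to 59.0% for control wounds against untreated skin, 64.6% of farther genes lay above, and 100% of nearer genes came from above. At an adjusted p under 0.001, 655 genes differed between the wounds, 45 were nearer and 534 farther. A fit of the VEGF, control and untreated arrays alone gave 78 nearer genes, and Cldn5 then no longer passed between the wounds. An unpaired t-test called 8878 genes at an unadjusted p under 0.05 and 6291 after Benjamini-Hochberg adjustment, with no fold threshold. Leaving out each array in turn gave 4232 to 4756, 2941 to 3575, 898 to 1203, 89 to 161 and 704 to 912 genes in the same order. Of 7189 values of named genes under alternatives, 180 lost their call, 60 gained one and none that was called in the main fit changed sign. Sign changes of values that were not called in it were not counted. No paired analysis was possible because the replicate numbers only name arrays and the labels pair none of them.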
